A study of Mus musculus with 9 samples.

Results

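A set of 55 genes of mitosis and chromosome segregation was followed across primary mouse mammary tumours of a non-metastatic model and of 2 metastatic models derived from it. The genes were chosen by function, as mitotic kinases and their activators and as genes of the spindle checkpoint, kinetochore, kinesins, condensin, spindle, cytokinesis and anaphase. This set and the other gene lists below were chosen with earlier results of these data known. All 55 were among the 14108 genes counted, and all 55 passed the filter on low counts which left 14086 genes to be tested. RNA was sequenced from 9 tumours, 3 of each model. HR1 (LB-mHR1) is a cell line from a mammary tumour of a mouse with a transgene for PIK3CA H1047R driven by the CAG promoter, and it served as the control with low *Nfib* expression. LM1 and LM9 are lines grown from lung metastases that arose after *piggyBac* transposons were mobilized in HR1 cells, and the study used them as models with high *Nfib* expression. They therefore share the PIK3CA H1047R transgene with HR1, and each is a single line. In each case 250000 cells in Matrigel and PBS were injected into the mammary fat pad of a female NOD/SCID mouse (NOD.CB17-Prkcd<scid>/J) of 4 to 8 weeks, a host without mature B and T cells but with myeloid cells. Tumours were removed before they reached 1500 cubic mm, and GFP-positive cells were sorted for RNA. The replicates are separate tumours of 1 line each, so p-values measure the spread between tumours and not between lines.

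When a cell enters mitosis, CDK1 bound to A- and B-type cyclins becomes active, chromosomes are compacted by condensin and topoisomerase II, and kinesin motors build a bipolar spindle. Kinetochores attach the chromosomes to it, and the spindle checkpoint holds back the anaphase-promoting complex (APC/C) until all are attached. The APC/C then lets separase cut cohesin, and the central spindle places the furrow that divides the cell. Most of these genes are transcribed in late S, G2 and M phase, so their mRNA level in a tumour rises with the share of dividing cells. In bulk RNA more cells in these phases and more mRNA per cell cannot be told apart.

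The promoters of these genes are shown first, because late cell-cycle genes are known for an element called CHR, with the letters TTTGAA near the start site to which the DREAM and MuvB complexes bind, and for CCAAT boxes, which NF-Y binds. RefSeq promoter stretches (GRCm38.p6, the assembly also called mm10), from 250 bases before to 50 after the start, were at hand for 46 of the 55 genes, and 9 (*Ccna2*, *Cdc25c*, *Foxm1*, *Aurkb*, *Incenp*, *Spc24*, *Kif20a*, *Smc4* and *Tpx2*) were not among them. TTTGAA, read on both strands, was present in 32 of 46 members (69.6%). The same letters were found in 18.1% of all 27025 promoters and in 12.1% of the 11094 promoters of tested genes. Of the same members 33 held CCAAT (71.7%), against 37.9% of all promoters and 38.7% of those of tested genes. The variant TTTAAA was in 10 members (21.7%) and in 13.2% of all promoters. These are counts of letters and not of bound sites.

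For 7 members the 100 bases before the start are given with these motifs in capitals (TTTGAA or TTCAAA for the CHR, TTTAAA for its variant, CCAAT or ATTGG for the CCAAT box). *Cdc20*, *Top2a*, *Kif11*, *Ncapg* and *Plk1* rose in the metastatic models, and *Mybl2* and *Espl1* did not pass the test, so that members of both kinds are shown. They were chosen with their values known.
Cdc20: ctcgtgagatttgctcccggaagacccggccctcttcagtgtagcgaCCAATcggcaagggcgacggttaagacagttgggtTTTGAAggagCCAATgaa
Top2a: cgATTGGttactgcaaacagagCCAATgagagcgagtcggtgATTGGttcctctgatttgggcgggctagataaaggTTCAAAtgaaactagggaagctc
Kif11: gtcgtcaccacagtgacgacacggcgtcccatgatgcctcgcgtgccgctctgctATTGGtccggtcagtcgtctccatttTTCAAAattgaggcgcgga
Ncapg: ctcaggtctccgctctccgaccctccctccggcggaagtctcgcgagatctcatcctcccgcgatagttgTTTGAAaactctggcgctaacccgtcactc
Plk1: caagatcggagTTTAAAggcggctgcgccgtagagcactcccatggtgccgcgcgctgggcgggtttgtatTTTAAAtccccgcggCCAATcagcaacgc
Mybl2: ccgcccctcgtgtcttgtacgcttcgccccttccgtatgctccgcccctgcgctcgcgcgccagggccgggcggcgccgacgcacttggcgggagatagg
Espl1: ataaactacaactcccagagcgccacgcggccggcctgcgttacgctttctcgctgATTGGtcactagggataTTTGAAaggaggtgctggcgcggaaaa
They lie at chr4:118437344-118437443 (minus strand) for *Cdc20*, chr11:99024190-99024289 (minus strand) for *Top2a*, chr19:37376282-37376381 (plus strand) for *Kif11*, chr5:45669825-45669924 (plus strand) for *Ncapg*, chr7:122159335-122159434 (plus strand) for *Plk1*, chr2:163054535-163054634 (plus strand) for *Mybl2* and chr15:102296193-102296292 (plus strand) for *Espl1*. Counted from the start, the CHR began 18 bases upstream in *Cdc20*, 23 in *Top2a*, 19 in *Kif11*, 30 in *Ncapg* and 27 in *Espl1*, and the variant nearest to the start 29 bases upstream in *Plk1*. These positions are not those of most members. Only 10 of 46 members (21.7%) held TTTGAA in the 50 bases before the start, against 2.67% of all promoters and 1.49% of those of tested genes. *Mybl2* held none of the 3 motifs in the 100 bases printed, although *Espl1*, which also did not pass, held a CHR and a CCAAT box. Among members with a promoter entry the median rise over HR1 of both metastatic models was, on the log2 scale, 1.49 for the 32 with TTTGAA and 1.20 for the 14 without it, with ranges of 0.36 to 2.52 and 0.46 to 2.25 that overlapped.

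Total counts were 32393958 to 46681945 per tumour, and levels are given as CPM, counts scaled to the same library size with TMM factors. *Nfib* stood at 1343, 23.9 and 18.3 CPM in HR1 replicates 1, 2 and 3, and at 786, 791 and 579 CPM in LM1 and 532, 583 and 421 CPM in LM9. The tumour labelled HR1 replicate 1 thus went against the low *Nfib* class of its model, and results are also given without it. Leukocyte markers, 12 genes such as *Ptprc* and *Lyz2*, summed to 158 to 636 CPM in HR1, 124 to 134 CPM in LM1 and 188 to 216 CPM in LM9. Of these 7 of 12 were lower in LM1 and LM9 together than in HR1, by edgeR at an adjusted p under 0.05. Of all tested genes 23.6% were lower and 19.9% higher in this comparison, shares that also stand beside the fibroblast and endothelial counts below. *Cd68* alone made up most of the sum in LM9, with a mean of 127 CPM against 17.1 CPM in LM1, while *Lyz2*, *Csf1r*, *Tyrobp*, *Aif1* and *Fcgr3* had lower means in LM9 than in LM1. Erythroid markers, of which 4 were analysed, summed to 27.3 to 246 CPM in HR1, 21.2 to 67.5 CPM in LM1 and 7.13 to 18.6 CPM in LM9. The 10 genes of a fibroblast list summed to 23424 to 35254 CPM in HR1, 10404 to 13828 CPM in LM1 and 8976 to 10546 CPM in LM9. The collagens *Col1a1* and *Col3a1*, and *Dcn* in HR1 replicate 1, made up most of the sum, *Thy1* was under 4 CPM in every tumour, and 9 of the 10 were lower in LM1 and LM9 together. Of the endothelial list *Cdh5* and *Kdr* were higher in LM1 and LM9 together, while 6 of the 9 genes analysed (*Pecam1*, *Tie1*, *Emcn*, *Vwf*, *Esam* and *Cldn5*, all with means under 4 CPM in every model) were lower. Carried by *Cdh5* and *Kdr*, the sum was 11.6 to 39.9 CPM in HR1, 167 to 230.1 CPM in LM1 and 261 to 298 CPM in LM9. The epithelial markers *Krt18*, *Krt19*, *Epcam* and *Cdh1* had means under 3 CPM in every model, so the labelled mammary origin was not visible in them. The 6 epithelial genes analysed, of which *Krt14* was the most abundant outside HR1 replicate 1, summed to 7.55 to 121 CPM in HR1, 158 to 181 CPM in LM1 and 14.4 to 18.0 CPM in LM9. No marker was at 0 in all tumours. The fibroblast and endothelial sums did not overlap between HR1 and the LM tumours, the others did in at least 1 model, and their part in the results was not tested.

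The mitotic genes as a group took a larger share of the RNA in both metastatic models. The 55 genes held 0.196, 0.204 and 0.279% of all counts in HR1, 0.574, 0.588 and 0.574% in LM1, and 0.522, 0.527 and 0.559% in LM9 (replicates 1 to 3). The means were 0.227% ± 0.0459 (SD, n = 3), 0.579% ± 0.00813 and 0.536% ± 0.0201, and every tumour of LM1 and LM9 lay above every HR1 tumour. Relative to each gene's mean log2 level over the 9 tumours, the median member was at -1.15, -1.15 and -0.59 in HR1 and between 0.43 and 0.50 in the 6 other tumours. HR1 was also the most uneven model. HR1 replicate 3 was the highest HR1 tumour for 39 of 55 genes. In HR1 replicates 1, 2 and 3 the leukocyte markers summed to 352, 636 and 158 CPM and the fibroblast list to 35254, 23424 and 23890 CPM. Any relation of these sums to the level of the 55 genes was not tested. The median coefficient of variation of a member was 25.1% in HR1, 9.66% in LM1 and 6.38% in LM9.

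**Figure D1:**
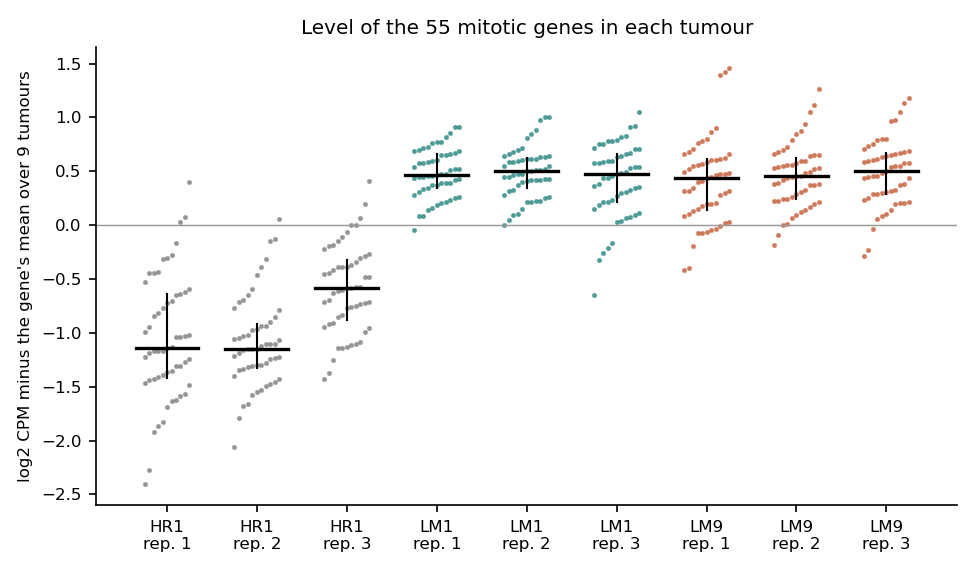
Each point is 1 of the 55 mitotic genes in 1 tumour, as its log2 CPM minus the mean of its log2 CPM over the 9 tumours, with the median (horizontal line) and quartiles (vertical line). The medians of the HR1 tumours lie at -1.15 to -0.59 and those of the LM1 and LM9 tumours at 0.43 to 0.50.

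The comparison of the metastatic models with HR1 shows how far the set, chosen with earlier results known, changed as a whole. When LM1 and LM9 were set together against HR1, 50 of 55 genes were higher at an adjusted p under 0.05 by edgeR's quasi-likelihood test and 0 were lower, where 19.9% of all tested genes were called higher and 23.6% lower. None was lower at an unadjusted p under 0.05 either, nor by DESeq2 or limma-voom. The median log2 fold change was 1.35, against -0.05 over all tested genes, and 41 of the called genes were at least 2-fold higher. In LM1 versus HR1 50 were higher (median 1.38, background 16.7%), and in LM9 versus HR1 46 (median 1.31, background 20.4%). None was lower in either, with none at an unadjusted p under 0.05, where 18.7% and 21.9% of all tested genes were lower. Both comparisons use the same HR1 tumours. Without HR1 replicate 1 the counts were 52, 53 and 50, with backgrounds of 27.5%, 26.9% and 27.9%, and none was lower, against 28.5%, 26.0% and 27.8% of all genes. For 48 of 55 genes every LM1 and LM9 tumour lay above every HR1 tumour, as it did for 15.6% of all tested genes. Such full separation of 6 from 3 tumours always gives the two-sided exact permutation test its smallest p, 0.0238, so this p adds nothing to the count. *Cdc25b*, *Mybl2*, *Bub3*, *Spc24* and *Espl1* did not pass the test in LM1 and LM9 together. Of the 50 called, *Bub1b*, *Mad2l1*, *Racgap1* and *Pttg1* lost the call when any of several single tumours was left out. Without HR1 replicate 1, *Bub3* rose by 0.55 (adjusted p = 0.0032) and *Spc24* by 0.89 (adjusted p = 0.0031) on the log2 scale, while *Cdc25b*, *Mybl2* and *Espl1* still did not pass in LM1 and LM9 together.

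**Figure D2:**
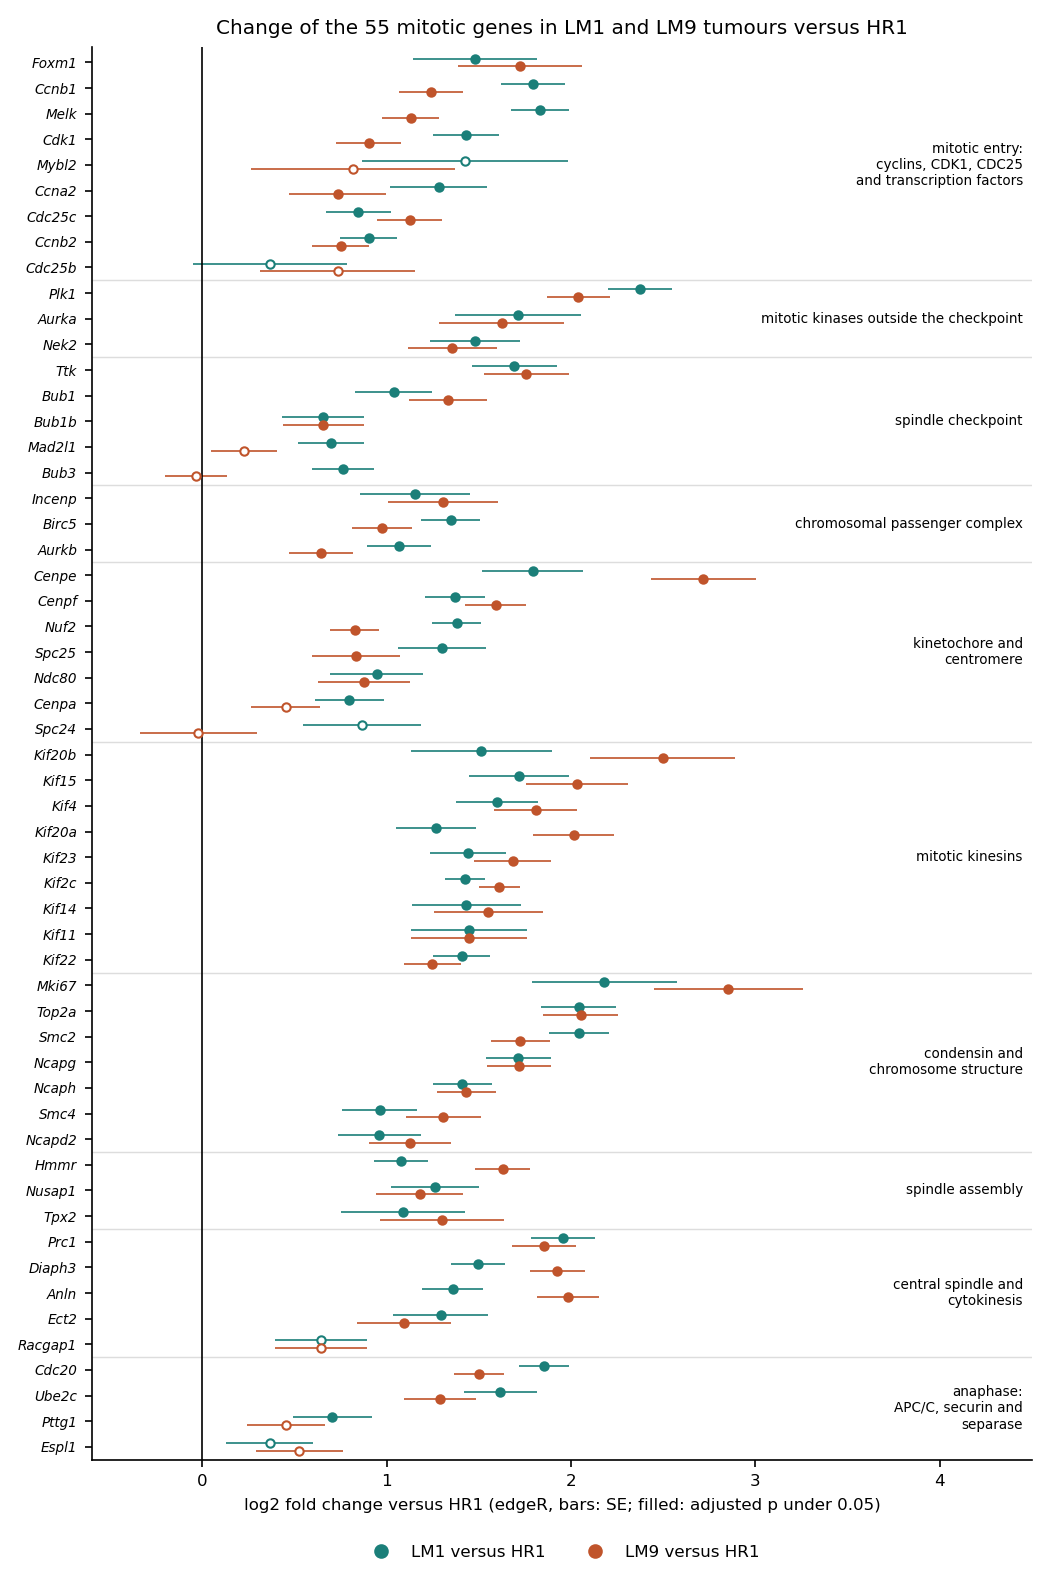
Log2 fold changes of the 55 mitotic genes versus HR1 by role (x axis; bars are SE, filled points have an adjusted p under 0.05 by edgeR), for LM1 and LM9 against the same 3 HR1 tumours. Filled points number 50 for LM1 and 46 for LM9, all to the right of 0.

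Of the 9 genes that drive entry into mitosis, 7 rose in both models. *Cdk1*, the kinase at the centre of mitotic entry, was at 138, 92.7 and 121 CPM in HR1, 317, 276 and 352 CPM in LM1 and 194, 232 and 229 CPM in LM9. Each LM tumour exceeded each HR1 tumour, and the log2 fold change was 1.43 ± 0.18 (adjusted p = 0.00069) in LM1 and 0.90 ± 0.18 (adjusted p = 0.0044) in LM9. *Ccnb1*, its cyclin B1 partner, stood at 8.68, 8.22 and 11.6 CPM in HR1, 35.9, 30.2 and 32.8 CPM in LM1 and 21.6, 24.0 and 21.8 CPM in LM9. Levels were highest in LM1, intermediate in LM9 and lowest in HR1 with no overlap among the 3, and the changes were 1.79 ± 0.17 (adjusted p = 0.00025) in LM1 and 1.24 ± 0.17 (adjusted p = 0.00093) in LM9. *Ccna2* (cyclin A2), *Ccnb2* (cyclin B2) and *Cdc25c*, a phosphatase that activates CDK1, changed by 1.01 ± 0.24 (adjusted p = 0.0089), 0.83 ± 0.14 (adjusted p = 0.0018) and 0.98 ± 0.16 (adjusted p = 0.0015) in LM1 and LM9 together. *Foxm1*, the transcription factor that activates many genes of this set, was at 30.7, 43.0 and 88.2 CPM in HR1, 141, 171 and 139.7 CPM in LM1 and 175, 180.5 and 179 CPM in LM9. HR1 replicate 3 was well above the other HR1 tumours but below all LM tumours, and *Foxm1* rose by 1.48 ± 0.34 (adjusted p = 0.0098) in LM1 and 1.72 ± 0.34 (adjusted p = 0.0045) in LM9. *Melk*, a kinase whose mRNA peaks in mitosis, was at 21.9, 17.4 and 17.4 CPM in HR1, 70.1, 61.1 and 70.4 CPM in LM1 and 36.1, 44.1 and 43.7 CPM in LM9. Its 3 models did not overlap, with LM1 highest, and it rose by 1.83 ± 0.15 (adjusted p = 0.00015) in LM1 and 1.13 ± 0.15 (adjusted p = 0.00084) in LM9. *Mybl2* (B-Myb), which acts with MuvB before FOXM1, was at 3.59, 8.87 and 25.2 CPM in HR1, 32.5, 37.4 and 31.3 CPM in LM1 and 22, 24.7 and 19.8 CPM in LM9. Its HR1 tumours spread over a wide range and overlapped LM9, and the changes of 1.42 ± 0.56 (adjusted p = 0.077) in LM1 and 0.82 ± 0.55 (adjusted p = 0.26) in LM9 did not pass. With HR1 replicate 1 left out, they were 0.99 (adjusted p = 0.043) in LM1, which passed, and 0.38 (adjusted p = 0.38) in LM9. With all tumours, DESeq2 and limma-voom called *Mybl2* higher in LM1 and in both models together. *Cdc25b*, the other CDK1-activating phosphatase measured, was at 21.3, 80.8 and 88.8 CPM in HR1, 81.8, 82.9 and 81.4 CPM in LM1 and 107, 101 and 109 CPM in LM9. Only HR1 replicate 1 was low, and neither 0.37 ± 0.42 (adjusted p = 0.53) in LM1 nor 0.73 ± 0.42 (adjusted p = 0.19) in LM9 passed. Without that tumour the change turned to -0.04 (adjusted p = 0.77) in LM1 and was smaller but passed in LM9, at 0.32 (adjusted p = 0.028).

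All 3 mitotic kinases outside the checkpoint rose. *Plk1*, which acts at centrosomes, kinetochores and the midzone, stood at 29.8, 28.6 and 41.6 CPM in HR1, 162, 165 and 191 CPM in LM1 and 129, 144 and 139 CPM in LM9. The lowest LM tumour was far above the highest HR1 tumour, and the changes of 2.37 ± 0.17 (adjusted p = 0.00010) in LM1 and 2.04 ± 0.17 (adjusted p = 9.8e-05) in LM9 were among the largest of the set. *Aurka*, the spindle pole kinase, changed by 1.71 ± 0.34 (adjusted p = 0.0056) in LM1 and 1.62 ± 0.34 (adjusted p = 0.0060) in LM9. *Nek2*, which separates centrosomes, changed by 1.48 ± 0.24 (adjusted p = 0.0023) in LM1 and 1.35 ± 0.24 (adjusted p = 0.0030) in LM9.

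The spindle checkpoint was less uniform than the kinases. *Bub1*, the kinase that recruits the checkpoint to kinetochores, was at 20.1, 29.3 and 38.0 CPM in HR1, 58.6, 59.5 and 61.6 CPM in LM1 and 69.1, 72.2 and 79.1 CPM in LM9. The groups did not overlap, LM9 was highest, and *Bub1* rose by 1.04 ± 0.21 (adjusted p = 0.0058) in LM1 and 1.33 ± 0.21 (adjusted p = 0.0017) in LM9. *Ttk* (MPS1), which starts checkpoint signalling, rose by 1.69 ± 0.23 (adjusted p = 0.0010) in LM1 and 1.76 ± 0.23 (adjusted p = 0.00076) in LM9, and *Bub1b* (BUBR1), part of the inhibitor of the APC/C, by 0.65 ± 0.22 (adjusted p = 0.048) in LM1 and 0.66 ± 0.22 (adjusted p = 0.041) in LM9. The *Bub1b* changes were smaller without HR1 replicate 1, at 0.43 (adjusted p = 0.019) and 0.43 (adjusted p = 0.018). *Mad2l1* (MAD2) rose in LM1 by 0.70 ± 0.18 (adjusted p = 0.016) but not past the threshold in LM9 at 0.23 ± 0.18 (adjusted p = 0.33). *Bub3*, the scaffold of BUB1 and BUBR1, was at 145, 105 and 101 CPM in HR1, 189, 182 and 224 CPM in LM1 and 105, 121 and 117 CPM in LM9. LM1 stood above both other models, and LM9 lay within the HR1 range, with changes of 0.76 ± 0.17 (adjusted p = 0.0089) in LM1 and -0.04 ± 0.17 (adjusted p = 0.88) in LM9. Without HR1 replicate 1, in which *Bub3* was highest of the HR1 tumours, the LM9 change was 0.15 (adjusted p = 0.34).

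The chromosomal passenger complex, which corrects wrong attachments, rose as a whole. *Aurkb*, its kinase, was at 30.2, 21.1 and 32.6 CPM in HR1, 57.4, 58.2 and 60.0 CPM in LM1 and 39.2, 47.3 and 44.3 CPM in LM9. The LM1 tumours were within 3 CPM of each other, the LM9 tumours lay between them and HR1, and the changes were 1.07 ± 0.17 (adjusted p = 0.0023) in LM1 and 0.64 ± 0.17 (adjusted p = 0.018) in LM9. *Birc5* (survivin) and *Incenp*, the subunits that place the kinase, changed by 1.16 ± 0.15 (adjusted p = 0.00051) and 1.23 ± 0.27 (adjusted p = 0.0068) in LM1 and LM9 together.

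Among 7 kinetochore and centromere genes, 6 rose in LM1 and 5 in LM9. *Cenpf*, a large protein of the outer kinetochore, was at 17.0, 13.1 and 15.4 CPM in HR1, 42.6, 42.7 and 32.2 CPM in LM1 and 47.2, 43.3 and 46.3 CPM in LM9. LM1 replicate 3 was the lowest LM tumour, still above HR1, and *Cenpf* rose by 1.37 ± 0.16 (adjusted p = 0.00057) in LM1 and 1.59 ± 0.16 (adjusted p = 0.00025) in LM9. *Cenpe*, the kinetochore motor that brings chromosomes to the spindle equator, was at 9.01, 7.70 and 12.1 CPM in HR1, 38.4, 40.2 and 21.3 CPM in LM1 and 73.5, 57.8 and 58.6 CPM in LM9. It rose by 1.79 ± 0.27 (adjusted p = 0.0017) in LM1 and 2.72 ± 0.28 (adjusted p = 0.00026) in LM9, and the LM9 change was the second largest of the 55. The NDC80 complex, which holds the microtubule, has 4 subunits. *Ndc80* changed by 0.94 ± 0.25 (adjusted p = 0.019) in LM1 and 0.88 ± 0.25 (adjusted p = 0.021) in LM9, and *Spc25* by 1.30 ± 0.24 (adjusted p = 0.0040) in LM1 and 0.83 ± 0.24 (adjusted p = 0.021) in LM9. *Nuf2* stood at 28.3, 24.1 and 30.9 CPM in HR1, 76.2, 67.2 and 73.2 CPM in LM1 and 47.1, 51.7 and 48.8 CPM in LM9. Its models did not overlap, with LM9 between HR1 and LM1, and it rose by 1.38 ± 0.13 (adjusted p = 0.00025) in LM1 and 0.83 ± 0.13 (adjusted p = 0.0018) in LM9. *Spc24* changed by 0.86 ± 0.32 (adjusted p = 0.063) in LM1 and -0.02 ± 0.32 (adjusted p = 0.96) in LM9. By edgeR *Spc24* passed in neither, while DESeq2 and limma-voom called it higher in LM1. Without HR1 replicate 1 it was at 1.34 (adjusted p = 0.00060) in LM1, which passed, and at 0.44 (adjusted p = 0.089) in LM9. *Spc24* stood at 33.9, 12.4 and 19.2 CPM in HR1, highest in replicate 1, and at 19.3, 24.1 and 21 CPM in LM9. *Cenpa*, the histone that marks the centromere, rose in LM1 by 0.80 ± 0.19 (adjusted p = 0.011) and was at 0.45 ± 0.19 (adjusted p = 0.078) in LM9, which passed without HR1 replicate 1, at 0.59 (adjusted p = 0.016).

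The 9 mitotic kinesins rose without exception in both models, with log2 fold changes of 1.27 to 1.72 in LM1 and 1.25 to 2.50 in LM9. *Kif11* (EG5), which pushes the spindle poles apart, was at 20.2, 17.3 and 44.3 CPM in HR1, 71.7, 80.5 and 70.5 CPM in LM1 and 73.8, 70.8 and 78.2 CPM in LM9. HR1 replicate 3 was again the highest HR1 tumour, no group overlapped with HR1, and *Kif11* rose by 1.45 ± 0.32 (adjusted p = 0.0085) in LM1 and 1.45 ± 0.32 (adjusted p = 0.0073) in LM9. *Kif2c* (MCAK), which removes tubulin from microtubule ends, was at 20.9, 20.4 and 22.2 CPM in HR1, 55.1, 57.3 and 57.8 CPM in LM1 and 62.2, 64.5 and 67.0 CPM in LM9. Both the HR1 and the LM tumours were tightly grouped, and with changes of 1.42 ± 0.11 (adjusted p = 0.00012) in LM1 and 1.61 ± 0.11 (adjusted p = 3.9e-05) in LM9 it had the smallest adjusted p of the set in LM1 and LM9 together, 3.4e-05. *Kif20a* (MKLP2), which carries the passenger complex to the midzone, was at 37.5, 63.4 and 71.7 CPM in HR1, 136, 145 and 135 CPM in LM1 and 227, 232 and 238 CPM in LM9. LM9 stood above LM1 and LM1 above HR1 in every tumour, with changes of 1.27 ± 0.22 (adjusted p = 0.0027) in LM1 and 2.01 ± 0.22 (adjusted p = 0.00034) in LM9. The chromosome-bound *Kif4* and *Kif22* changed by 1.70 ± 0.21 (adjusted p = 0.00043) and 1.33 ± 0.14 (adjusted p = 0.00024) in both models together, and *Kif15*, which also works on spindle bipolarity, by 1.87 ± 0.25 (adjusted p = 0.00066). The cytokinesis motors *Kif14*, *Kif20b* and *Kif23* changed by 1.49 ± 0.27 (adjusted p = 0.0026), 2.0 ± 0.36 (adjusted p = 0.0025) and 1.56 ± 0.19 (adjusted p = 0.00044).

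All 7 genes of condensin and chromosome structure rose. *Mki67*, which coats mitotic chromosomes and is the marker of dividing cells in pathology, was at 17.7, 11.4 and 17.7 CPM in HR1, 86.2, 95.6 and 30.4 CPM in LM1 and 125, 114 and 98.9 CPM in LM9. LM1 replicate 3 was far below the other LM1 tumours, yet it stayed above HR1, and the changes of 2.18 ± 0.39 (adjusted p = 0.0037) in LM1 and 2.85 ± 0.40 (adjusted p = 0.0011) in LM9 gave the largest log2 fold change of the 55 in LM1 and LM9 together, 2.52 ± 0.37 (adjusted p = 0.0011). *Top2a*, the topoisomerase that untangles sister DNA, was at 86.0, 76.3 and 121 CPM in HR1, 396, 446 and 326 CPM in LM1 and 369, 387 and 419.9 CPM in LM9. LM1 and LM9 overlapped with each other and stood far above HR1, and *Top2a* rose by 2.04 ± 0.20 (adjusted p = 0.00029) in LM1 and 2.05 ± 0.20 (adjusted p = 0.00020) in LM9. *Smc2*, a core subunit of both condensins, was at 21.6, 17.2 and 22.5 CPM in HR1, 83.0, 97.2 and 72.1 CPM in LM1 and 64.4, 71.1 and 66.6 CPM in LM9. LM1 was highest, LM9 next and HR1 lowest with no overlap, and the changes were 2.04 ± 0.16 (adjusted p = 0.00012) in LM1 and 1.72 ± 0.16 (adjusted p = 0.00015) in LM9. The condensin I subunits *Ncapg* and *Ncaph* changed by 1.71 ± 0.16 (adjusted p = 0.00014) and 1.42 ± 0.15 (adjusted p = 0.00021) in both models together, *Smc4*, the partner of *Smc2*, by 1.13 ± 0.18 (adjusted p = 0.0015), and *Ncapd2* by 1.04 ± 0.20 (adjusted p = 0.0036).

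The 3 spindle assembly genes and the 5 genes of the central spindle rose in LM1 and LM9 together. *Hmmr*, which organizes microtubules at the poles, was at 24.8, 18.3 and 23 CPM in HR1, 47.5, 49.7 and 42.1 CPM in LM1 and 66.8, 66.2 and 71.4 CPM in LM9. LM9 was above LM1 and LM1 above HR1 in every tumour, and the changes were 1.08 ± 0.15 (adjusted p = 0.0011) in LM1 and 1.63 ± 0.15 (adjusted p = 0.00014) in LM9. *Tpx2*, the activator of Aurora A, and *Nusap1*, which bundles spindle microtubules, changed by 1.20 ± 0.30 (adjusted p = 0.013) and 1.22 ± 0.21 (adjusted p = 0.0024). *Diaph3*, a formin that builds actin filaments, was at 19.8, 16.4 and 19.0 CPM in HR1, 48.2, 60.8 and 46.8 CPM in LM1 and 68.8, 72.8 and 68.3 CPM in LM9. The 3 HR1 tumours were within 4 CPM of each other, and *Diaph3* rose by 1.5 ± 0.15 (adjusted p = 0.00026) in LM1 and 1.93 ± 0.15 (adjusted p = 6.6e-05) in LM9. *Anln* (anillin), which links actin and septins in the cleavage furrow, was at 62.2, 75.2 and 90.5 CPM in HR1, 174, 218 and 193 CPM in LM1 and 298, 282 and 320.2 CPM in LM9. Again LM9 was highest in every tumour, and *Anln* rose by 1.36 ± 0.17 (adjusted p = 0.00062) in LM1 and 1.98 ± 0.17 (adjusted p = 0.00010) in LM9. *Prc1*, which bundles the central spindle, changed by 1.90 ± 0.16 (adjusted p = 8.8e-05), and *Ect2*, which activates RhoA for the furrow, by 1.19 ± 0.23 (adjusted p = 0.0036). *Racgap1*, the partner of *Ect2*, changed by only 0.64 ± 0.22 (adjusted p = 0.043). In neither model alone did it pass by edgeR, while DESeq2 and limma-voom called it higher in LM9. Its changes were smaller but passed without HR1 replicate 1, at 0.38 (adjusted p = 0.011) in both models together, 0.38 (adjusted p = 0.018) in LM1 and 0.38 (adjusted p = 0.018) in LM9.

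Of the 4 anaphase genes, the activator and the E2 enzyme of the APC/C rose most. *Cdc20*, the activator of the APC/C, was at 76.4, 75.5 and 66.2 CPM in HR1, 255, 239 and 295 CPM in LM1 and 191, 219.9 and 205 CPM in LM9. Its HR1 tumours were within 11 CPM of each other, all LM tumours were above 190 CPM, and it rose by 1.85 ± 0.14 (adjusted p = 0.00010) in LM1 and 1.5 ± 0.13 (adjusted p = 0.00013) in LM9. *Ube2c*, the E2 enzyme, changed by 1.62 ± 0.20 (adjusted p = 0.00060) in LM1 and 1.29 ± 0.19 (adjusted p = 0.0014) in LM9. *Pttg1* (securin), the inhibitor of separase, rose in LM1 by 0.70 ± 0.21 (adjusted p = 0.032) and was at 0.45 ± 0.21 (adjusted p = 0.12) in LM9, where without HR1 replicate 1 it passed at 0.70 (adjusted p = 0.0055). *Espl1* (separase) itself was at 22.9, 40.3 and 46.3 CPM in HR1, 42.7, 51.3 and 47.1 CPM in LM1 and 55, 48.7 and 54.1 CPM in LM9. HR1 replicates 2 and 3 lay within the range of the LM tumours or just below it, and the changes of 0.36 ± 0.24 (adjusted p = 0.26) in LM1 and 0.53 ± 0.24 (adjusted p = 0.10) in LM9 did not pass. They were, without HR1 replicate 1, 0.13 (adjusted p = 0.45) and 0.28 (adjusted p = 0.094).

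**Figure D3:**
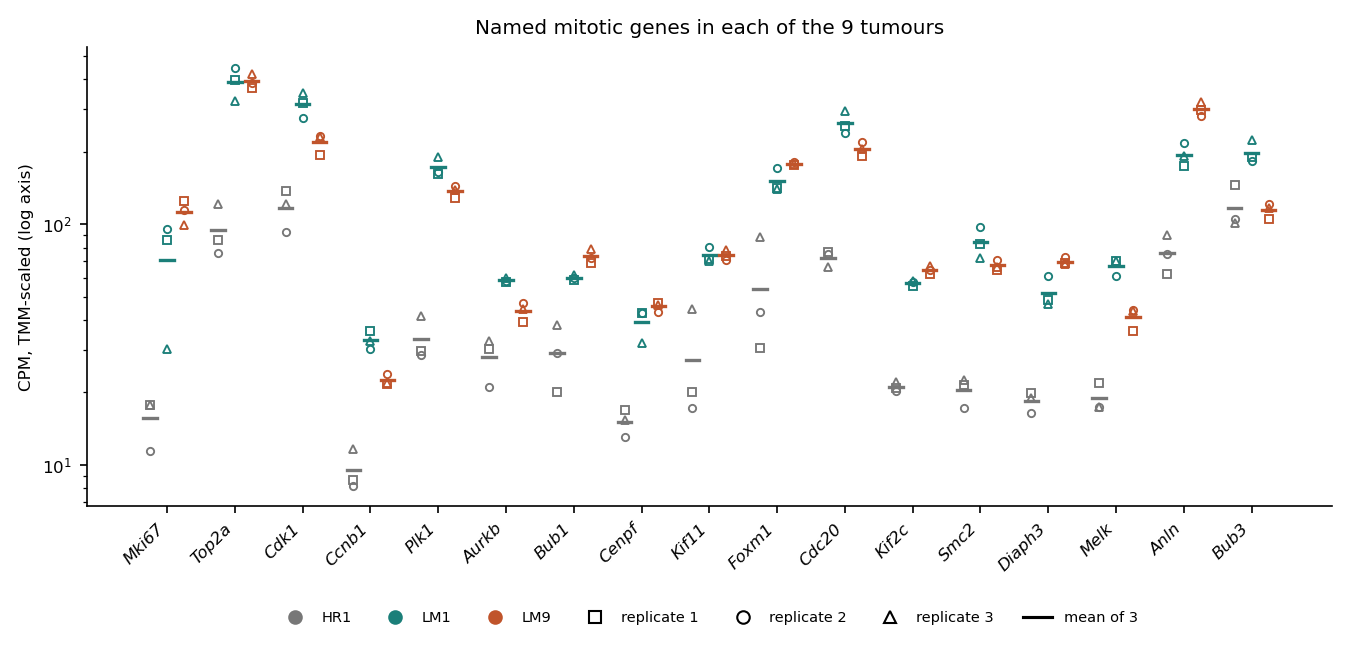
CPM (log axis) of the named mitotic genes in each of the 9 tumours, with the symbol giving the replicate and the bar the mean of 3. *Mki67* in LM1 replicate 3 (30.4 CPM) and *Bub3* in LM9 (105 to 121 CPM, beside HR1) are seen apart from the general rise.

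Levels of different genes can be compared only per length. As RPKM, CPM divided by the summed exon length in kb, *Cdc20* led in each model, averaging 38.9 for HR1, 141 for LM1 and 110.0 for LM9. In HR1 *Pttg1* (37.2) and *Ccnb2* (31.3) followed. In LM1 and in LM9 *Plk1* came second, at 78.4 and 62.3, from 15.2 in HR1. The third place was taken by *Ccna2* in LM1 (68.0) and *Kif20a* in LM9 (53.6), and *Kif15* was lowest in HR1 at 0.246.

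LM9 and LM1 had nearly the same level of the set as a whole, and in the main fit no larger share of it differed between them than of all genes. Of the 55, 4 were higher in LM9 and 4 lower (7.27% each), below the background of 11.5% and 10.6%, and the median log2 fold change was 0.00. Higher in LM9 were *Cenpe* by 0.93 ± 0.27 (adjusted p = 0.038), *Kif20a* by 0.75 ± 0.21 (adjusted p = 0.037), *Anln* by 0.62 ± 0.16 (adjusted p = 0.027) and *Hmmr* by 0.55 ± 0.15 (adjusted p = 0.028). Lower were *Bub3* at -0.80 ± 0.17 (adjusted p = 0.013), *Melk* at -0.70 ± 0.15 (adjusted p = 0.013), *Ccnb1* at -0.55 ± 0.17 (adjusted p = 0.046) and *Nuf2* at -0.55 ± 0.13 (adjusted p = 0.020). In 16 genes every LM9 tumour was above every LM1 tumour and in 16 below, which is also under the 31.9% and 31.1% of all tested genes. The exact permutation test of 3 against 3 tumours cannot give less than 0.10. These calls depended on single libraries. With HR1 replicate 1 left out 7 were higher and 10 lower (backgrounds 22.9% and 22.5%). Only for this fit and the main fit was the share of all genes called taken. None of the 55 was called by edgeR without LM1 replicate 3 or without LM9 replicate 1, where 4 and 5 genes were higher and 5 and 4 lower at an unadjusted p under 0.05. Called genes numbered 1 without LM1 replicate 1, 14 without HR1 replicate 2 and 2 each without LM9 replicate 2 or 3. With scaling to library size alone 1 gene was higher in LM9 and 7 were lower. By role, the medians were -0.53 for the entry genes, -0.37 for the passenger complex, -0.35 for the kinetochore and -0.29 for anaphase. They were -0.13 for the kinases, 0.00 for the checkpoint and the central spindle, 0.02 for condensin and 0.21 for the kinesins and spindle assembly. Differences between roles were not tested.

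Genes of DNA replication were set beside the mitotic genes, since both are transcribed in dividing cells. A list of 23 S-phase genes, such as the MCM helicase subunits and *Pcna*, the sliding clamp, summed to 1038, 1350.0 and 1845 CPM in HR1, 2885, 2936 and 3147 CPM in LM1 and 1448, 1730.4 and 1578 CPM in LM9. The mitotic genes summed to 2116, 2037 and 2763 CPM in HR1, 5542, 5594 and 5665 CPM in LM1 and 5232, 5428 and 5621 CPM in LM9. LM1 was thus high in both sums, while LM9 was high in the mitotic sum and within the HR1 range in the S-phase sum. The ratio of the mitotic to the S-phase sum was 2.04, 1.51 and 1.5 in HR1, 1.92, 1.91 and 1.80 in LM1 and 3.61, 3.14 and 3.56 in LM9, and LM9 did not overlap with the other models. In LM1 versus HR1 16 of 23 S-phase genes were higher and 0 lower by edgeR (median 0.89), and in LM9 versus HR1 2 of 23 S-phase genes were higher and 2 lower (median 0.11). In LM9 versus LM1 0 of 23 S-phase genes were higher and 15 lower, with a median of -0.91 where the mitotic genes had 0.00. Of all tested genes 16.7% were higher in LM1 than HR1, 20.4% were higher and 21.9% lower in LM9 than HR1, and 10.6% were lower in LM9 than LM1, so that the shares of S-phase genes called in LM9 versus HR1 lay below those of all genes. The counts of 0 were also 0 at an unadjusted p under 0.05, by DESeq2 and by limma-voom. Without HR1 replicate 1, 19 were higher in LM1 than HR1, 3 were higher and 2 lower in LM9 than HR1, and 19 were lower in LM9 than LM1. *Mcm5* was at 73.5, 87.4 and 129 CPM in HR1, 325, 358 and 389.8 CPM in LM1 and 103, 125 and 112 CPM in LM9, and LM9 differed from LM1 by -1.66 ± 0.21 (adjusted p = 0.0019). *Pcna* changed by -0.64 ± 0.13 (adjusted p = 0.011) between them.

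**Figure D4:**
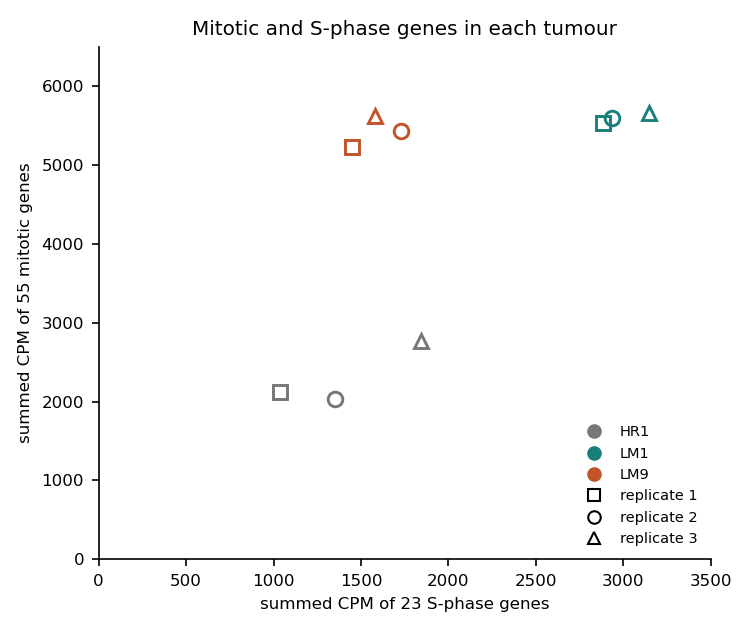
Summed CPM of the 55 mitotic genes (y axis) against summed CPM of 23 S-phase genes (x axis) in each tumour, with the colour giving the model and the symbol the replicate. LM1 and LM9 share a mitotic sum of 5232 to 5665 CPM, while the S-phase sum is 2885 to 3147 CPM in LM1 and 1448 to 1730.4 CPM in LM9.

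Replicates of a model differed in how their levels moved with summed exon length, and LM1 replicate 3 had low values of some long members. This length merges the exons of all annotated transcripts of a gene and can exceed that of any single transcript. Relative to the mean of LM1 replicates 1 and 2, *Mki67* (exon length 10061 bases) stood at 0.33, *Cenpe* (8620 bases) at 0.54, *Kif15* (11020 bases) at 0.54 and *Kif20b* (6957 bases) at 0.62. The median log2 ratio was 0.22 for the 9 members under 3 kb and -0.05 for the 19 members of 6 kb and more, so that several long members, such as those named, were low and others were not. Across the 55 genes the ratio had a Spearman rho of -0.58 with length, and across 10397 genes averaging 5 CPM or more one of -0.47. LM1 replicate 2 went the other way, set against the other LM1 tumours in the same manner, with a rho of 0.58 across the 55 genes and 0.61 across all of these genes, and so did LM9 replicate 1 within LM9, with 0.53 and 0.36. In the 6 other tumours rho lay between -0.29 and 0.17 across the 55 genes. These points share the 3 libraries of a model and are not independent. In LM9 versus LM1 the log2 fold change had a rho of 0.43 with length across the 55 genes and 0.26 across all of these genes, and without LM1 replicate 3 of 0.34 and 0.21. In LM9 versus HR1 rho was 0.34 and 0.26, with a median log2 fold change of 1.13 for members under 3 kb and 1.59 for those of 6 kb and more. It was 0.26 and 0.18 for LM1 and LM9 together, and 0.11 and 0.07 for LM1, versus HR1. The part of length in the differences between models was not tested.

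**Figure D5:**
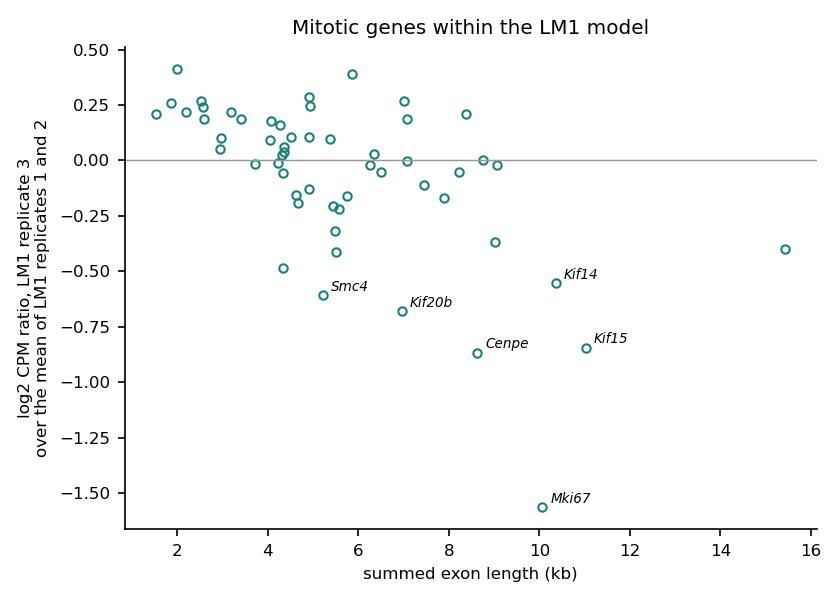
Log2 ratio of CPM in LM1 replicate 3 over the mean of LM1 replicates 1 and 2 (y axis) against summed exon length in kb (x axis) for the 55 mitotic genes. The 9 genes under 3 kb all lie above 0, and *Mki67* lies lowest, at -1.56.

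Other genes of the same machinery were counted from lists of their complexes. The shares of all tested genes to set beside the counts are 19.9% higher and 23.6% lower in LM1 and LM9 together, 16.7% higher in LM1 and 20.4% in LM9 versus HR1, and 11.5% higher and 10.6% lower in LM9 versus LM1. In these lists the counts of 0 lower genes were also 0 at an unadjusted p under 0.05, by DESeq2 and by limma-voom. Of 34 further kinetochore genes 24 were higher and 0 lower in LM1 and LM9 together, with 25 higher in LM1 and 16 in LM9. *Ska3*, which couples kinetochores to microtubules, was at 8.05, 6.06 and 7.85 CPM in HR1, 31.0, 29.8 and 33.3 CPM in LM1 and 23.9, 26.1 and 23.9 CPM in LM9 and rose by 2.10 ± 0.16 (adjusted p = 0.00011) in LM1 and 1.75 ± 0.16 (adjusted p = 0.00013) in LM9. In LM9 versus LM1, 9 of the 34 were lower and 1 higher, and *Cenpp*, of the inner kinetochore, differed by -0.81 ± 0.18 (adjusted p = 0.015). Of 13 centrosome and centriole genes 12 were higher in LM1 and LM9 together. *Stil*, needed for centriole duplication, changed by 1.94 ± 0.34 (adjusted p = 0.0030) in LM1 and 1.75 ± 0.34 (adjusted p = 0.0040) in LM9. *Cep192* and *Ckap5*, which start and extend centrosomal microtubules, were higher in LM9 than LM1, by 0.75 ± 0.17 (adjusted p = 0.015) and 0.80 ± 0.23 (adjusted p = 0.037).

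Of 17 APC/C subunits and regulators other than *Cdc20* and *Ube2c*, 5 were higher and 2 lower in LM1 and LM9 together, against 19.9% and 23.6% of all tested genes, and the median log2 fold change was 0.00. *Anapc2*, its cullin, was at 164, 178 and 186 CPM in HR1, 89.3, 94.4 and 114 CPM in LM1 and 101, 102 and 108 CPM in LM9, in which HR1 was highest. *Anapc11*, its RING subunit, was at 146, 92.3 and 71.2 CPM in HR1, 56.0, 45.4 and 59.9 CPM in LM1 and 31.9, 39.3 and 36.3 CPM in LM9. HR1 was again highest, and the changes were -0.83 ± 0.13 (adjusted p = 0.0019) in LM1 and -0.76 ± 0.13 (adjusted p = 0.0024) in LM9 for *Anapc2* and -0.94 ± 0.25 (adjusted p = 0.019) in LM1 and -1.52 ± 0.25 (adjusted p = 0.0022) in LM9 for *Anapc11*. *Ube2s*, the chain-extending E2 enzyme, rose by 1.32 ± 0.16 (adjusted p = 0.00053) in LM1 and 0.89 ± 0.15 (adjusted p = 0.0026) in LM9. *Cdc26*, a small scaffold subunit, was lower in LM9 than LM1 at -1.04 ± 0.24 (adjusted p = 0.016).

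Of 13 cohesin genes 7 were higher in LM1 and LM9 together and 0 lower, among them *Rad21*, the subunit that separase cuts, by 0.85 ± 0.16 (adjusted p = 0.0038) in LM1 and 1.16 ± 0.16 (adjusted p = 0.00084) in LM9. The condensin II genes *Ncapd3* and *Ncapg2* rose by 0.90 ± 0.15 (adjusted p = 0.0015) and 0.97 ± 0.20 (adjusted p = 0.0049) in both models together, and *Ncaph2* was at 0.26 ± 0.20 (adjusted p = 0.30). Of 11 DREAM and MuvB subunits 3 were higher and 1 lower, beside the same shares of 19.9% and 23.6% of all genes. *Lin54*, the MuvB subunit that binds the CHR, was at 8.74, 7.90 and 10.7 CPM in HR1, 20.9, 29.2 and 20.8 CPM in LM1 and 25.9, 25.7 and 23.8 CPM in LM9 and rose by 1.37 ± 0.19 (adjusted p = 0.0011) in LM1 and 1.46 ± 0.19 (adjusted p = 0.00076) in LM9. *Rbl2* (p130), the pocket protein of DREAM, was at 33.9, 20.5 and 19.3 CPM in HR1, 9.24, 11.6 and 10.8 CPM in LM1 and 23.2, 18.8 and 22.5 CPM in LM9. It was lower in LM1 at -1.22 ± 0.24 (adjusted p = 0.0050), and LM9 exceeded LM1 by 1.03 ± 0.24 (adjusted p = 0.017).

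Some counts cannot be assigned with certainty. *Ccnb1* shared 23.4% of the 50-base stretches of its transcripts with other annotated genes, pseudogenes of cyclin B1 among them, and *Mybl2* 19.3%. The exons of *Kif20a* overlapped those of the antisense gene *Cdc23* over 29.3% of their length and those of *Ube2c* the antisense gene Tnnc2 over 22.8%, and whether the authors counted by strand was not given in the sources used here. *Cdc23* was at a mean of 55.8 CPM in HR1, 44.6 in LM1 and 52.2 in LM9, where *Kif20a* was at 57.5, 138 and 233 CPM.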

How the data were processed

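RNA sequencing covered 9 tumours, 3 each of HR1, LM1 and LM9, grouped by their labels. The authors aligned single-end reads of 50 nt from stranded mRNA libraries to mm10 with STAR and deposited, per tumour, counts of read 5′ ends over the union of each gene's exons (qCount of QuasR). The versions, the strand setting and the rule by which genes were listed are not given in the sources used here. Every one of the 14108 genes had a count of at least 7 in at least 3 tumours.

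From these counts edgeR 4.0.16 (R 4.3.3) was run with TMM scaling (factors 0.928 to 1.05), filterByExpr (14086 genes kept, 22 left out) and a robust quasi-likelihood fit of the 3 groups without covariates. P-values were Benjamini-Hochberg adjusted over all genes tested, with a threshold of 0.05. The SE of a log2 fold change was taken as its size divided by the square root of F, which is approximate. CPM used TMM-scaled library sizes. Exact permutation tests were two-sided, on mean CPM. The total counts of 32393958 to 46681945 set the counting precision of each tumour. Within each model no pair of tumours agreed within sampling noise, so all counted as separate samples. Replicate numbers are shared by the models. Deviations of same-numbered tumours correlated between -0.11 and 0.14, except for 0.40 between replicate 3 of LM1 and of LM9. The numbers thus did not pair the tumours across all models, and no block was used in the main fit. Whether the replicate 3 libraries of LM1 and LM9 were prepared together is not known.

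The 55 genes and all other gene lists were chosen with earlier results of these data known. Named with every tumour's value were 11 genes fixed by role (*Mki67*, *Top2a*, *Cdk1*, *Ccnb1*, *Plk1*, *Aurkb*, *Bub1*, *Cenpf*, *Kif11*, *Foxm1* and *Cdc20*) and the 5 with the smallest adjusted p in each comparison. Members that did not pass, members called between LM9 and LM1 and genes outside the set were added after their values were seen. Alternatives were RLE or library-size scaling, other filters, DESeq2 1.42.0, limma-voom 3.58.1 (the test the authors state), a 2-fold minimum, a replicate block, fits of only the groups compared, and leaving out each tumour. Exon lengths were summed over merged exons of the annotation of mm10. Promoter stretches were RefSeq's (GRCm38.p6), searched on both strands. edgeR was also run on simulated counts of 14086 genes for LM1 and LM9 together versus HR1. It recovered 0% of 66 genes changed by 0.5 on the log2 scale, 13.8% of 65 changed by 1 and 66.7% of 66 changed by 2. Few genes were changed in the simulation, while in the data 19.9% of tested genes were called higher and 23.6% lower. The adjusted p is thus harder to pass in the simulation, and its recovery does not give that of the data. A member that did not pass is still not shown to be unchanged.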

Additional observations from a re-analysis of the deposited data

Results flagged for a closer look

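Between the 2 metastatic models 8 of the 55 genes differed by edgeR's test of LM9 versus LM1 (4 higher and 4 lower in LM9, 7.27% each). This is below the 11.5% and 10.6% of all tested genes, so in this fit the set did not stand out. Some other fits called more members, with no share of all genes taken. The fold of LM9 versus LM1 does not rest on the HR1 levels, although the estimate of the spread does. The change was larger in LM9 for *Cenpe*, whose log2 fold changes were 1.79 in LM1 and 2.72 in LM9 and differed by 0.93 (adjusted p = 0.038). It was also larger for *Kif20a*, at 1.27 in LM1 and 2.01 in LM9, a difference of 0.75 (adjusted p = 0.037), for *Anln*, at 1.36 in LM1 and 1.98 in LM9, a difference of 0.62 (adjusted p = 0.027), and for *Hmmr*, at 1.08 in LM1 and 1.63 in LM9, a difference of 0.55 (adjusted p = 0.028). It was larger in LM1 for *Bub3*, at 0.76 in LM1 and -0.04 in LM9, a difference of -0.80 (adjusted p = 0.013), and for *Melk*, at 1.83 in LM1 and 1.13 in LM9, a difference of -0.70 (adjusted p = 0.013). The same held for *Ccnb1*, at 1.79 in LM1 and 1.24 in LM9, a difference of -0.55 (adjusted p = 0.046), and for *Nuf2*, at 1.38 in LM1 and 0.83 in LM9, a difference of -0.55 (adjusted p = 0.020). None of the 8 was called without LM1 replicate 3 or without LM9 replicate 1.

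Among the related genes named, the difference of LM9 from LM1 on the log2 scale was -1.66 (adjusted p = 0.0019) for *Mcm5* and -0.64 (adjusted p = 0.011) for *Pcna* of the S-phase list. It was -0.81 (adjusted p = 0.015) for *Cenpp*, -1.04 (adjusted p = 0.016) for *Cdc26*, 1.03 (adjusted p = 0.017) for *Rbl2*, 0.75 (adjusted p = 0.015) for *Cep192* and 0.80 (adjusted p = 0.037) for *Ckap5*.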

How the results depend on the processing

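The counts of genes called against HR1 stayed within 1.5 times the reported ones, and none was called lower, under every alternative run. Leaving out each tumour gave 46 to 52 genes for LM1 and LM9 together, 43 to 53 for LM1 and 41 to 50 for LM9, and 46, 43 and 41 genes were called in every setting other than the 2-fold minimum, which left 41, 40 and 37. None of the settings moved the median of all genes by over 0.1 on the log2 scale. In LM9 versus LM1 the reported count of 8 (4 higher, 4 lower) depended on the setting. DESeq2 called 13 (6 higher, 7 lower), a fit of the LM1 and LM9 tumours alone 25 (8 higher, 17 lower), and scaling by library size alone 8 (1 higher, 7 lower). The share of all genes called was not taken in these settings, so these counts cannot be read against a background. No gene was both called and at least 2-fold changed, for a count of 0. Leaving out each tumour gave 0 to 17, with 17 without HR1 replicate 1, 0 without LM1 replicate 3 and 0 without LM9 replicate 1. No gene was called there in every setting, and the cause was not tested. With the replicate block 4 were called (1 higher, 3 lower), and it changed the other counts by 1 at most, to 49, 49 and 46. Over 2886 alternatives for the 55 genes against HR1 and the 8 genes above, 135 lost and 26 gained a call. Calls were gained for *Bub3*, *Mybl2*, *Spc24* and *Espl1* in both models together and for *Mybl2*, *Racgap1* and *Spc24* in LM1. In LM9 they were gained for *Cdc25b*, *Cenpa*, *Espl1*, *Mybl2*, *Pttg1* and *Racgap1*. Calls were lost for *Bub1b*, *Mad2l1*, *Racgap1* and *Pttg1* in both models together, for *Bub1b*, *Mad2l1*, *Incenp*, *Ndc80*, *Kif20b*, *Tpx2* and *Pttg1* in LM1, and for *Ccna2*, *Bub1b*, *Aurkb*, *Ndc80* and *Spc25* in LM9, in each case under between 3 and 9 alternatives. In LM9 versus LM1 they were lost for *Cenpe* (8), *Kif20a* (8), *Ccnb1* (7), *Anln* (6), *Hmmr* (6), *Nuf2* (5), *Melk* (3) and *Bub3* (2). The sign turned 8 times, each for a gene not called. Leaving out each tumour, *Cdc25b* in LM1 ranged from -0.040 (without HR1 replicate 1) to 0.68, *Bub3* in LM9 from -0.13 to 0.15 (above 0 without HR1 replicate 1 and without LM9 replicate 1) and *Spc24* in LM9 from -0.30 to 0.44 (above 0 without the same 2 tumours). *Spc24* in LM9 was also at 0.0070 by library size, 0.14 by limma-voom and 0.068 with the replicate block. With 3 tumours per model the exact permutation test of LM9 versus LM1 cannot go below 0.10.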
